A study of Mus musculus with 4 samples.

Results

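The comparison described here set the array of iPS-J, a mouse induced pluripotent stem cell line, against the array of mouse embryonic fibroblasts (MEF), and covered 30713 genes of 35242 with a value. Induced pluripotent stem cells are somatic cells reprogrammed to a state like that of embryonic stem cells, whereas MEF, from embryonic connective tissue, secrete and contract an extracellular matrix. Pluripotency rests on a small circuit of transcription factors around Oct4, Sox2 and Nanog, which keep each other active. During reprogramming the fibroblast programme is shut down, epithelial contacts form and the pluripotency circuit starts up. iPS-J and MEF were both of the C57BL/6 background. iPS-J was grown with more serum than MEF and with 2-Me and the cytokine LIF, which MEF did not receive, so cell type and medium cannot be told apart. The labels do not say with which factors iPS-J was made, from which cells, or whether feeder cells were used, and they give no passage or embryo age for MEF.

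Each population was measured on 1 array of the same slide, with Cy3-labelled RNA and 1 colour. The other 2 arrays of the series, of the line iPS-OSH (C57BL/6) and of embryonic stem cells (ESC, 129SV), also grown with LIF, entered only the choice of probes and values given for orientation. Without replicates no difference has a test or a replicate check, and differences are described by size only. Each of the 59305 non-control spots has a processed signal, a fluorescence intensity on a linear scale. Spots well above background made up 67.0% on the iPS-J array and 81.7% on the MEF array. The log2 signal of each array was scaled by its 75th percentile, which was 1241 for iPS-J and 1765 for MEF, and differences are iPS-J minus MEF on this scale. Signals are quoted unscaled, iPS-J first and MEF second. Where a gene was detected on only 1 of the arrays, its difference is a bound given as "at least". A bound under 2-fold is counted as within 2-fold, although the true difference may be larger. Probes printed 10 times gave a log2 SD between spots of 0.09 on the iPS-J array and 0.11 on MEF, or 0.15 for a difference. This value does not cover the spread from culture to culture. The 2 arrays were scanned in different sessions, and the software removed a spatial trend from iPS-J but not from MEF. Scan session, this step and cell type cannot be told apart.

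Most genes lay within 2-fold of each other in iPS-J and MEF or had a bound under 2-fold. Among genes with a plain symbol (no clone, locus or predicted-gene name), measured differences went up to 3464-fold, for Dppa5a. Of the genes compared, 4964 were at least 2-fold higher in iPS-J (16.2%) and 7542 at least 2-fold lower (24.6%). The other 18207 lay within 2-fold or had a bound under 2-fold. Higher genes made up 39.7% of the differences past 2-fold. That share was 26.0% with scaling on spike-in probes, 48.6% with quantile normalization and 51.0% with another background correction. At a 4-fold threshold the counts were 2065 higher and 2205 lower, or 48.4% higher. The median difference over all genes was -0.23, so gene lists are read against this value and against the shares of 16.2% and 24.6%. Both arrays detected 24783 of the genes, of which 4252 were at least 2-fold higher in iPS-J and 5711 at least 2-fold lower. iPS-J alone detected 744 and MEF alone 5186. The lowest signals well above background were 35.0 on iPS-J and 34.0 on MEF. Relative to the 75th percentiles of 1241 and 1765, detection stopped at a higher level on the iPS-J array. How much this contributed to the 2 counts was not tested.

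**Figure D1:**
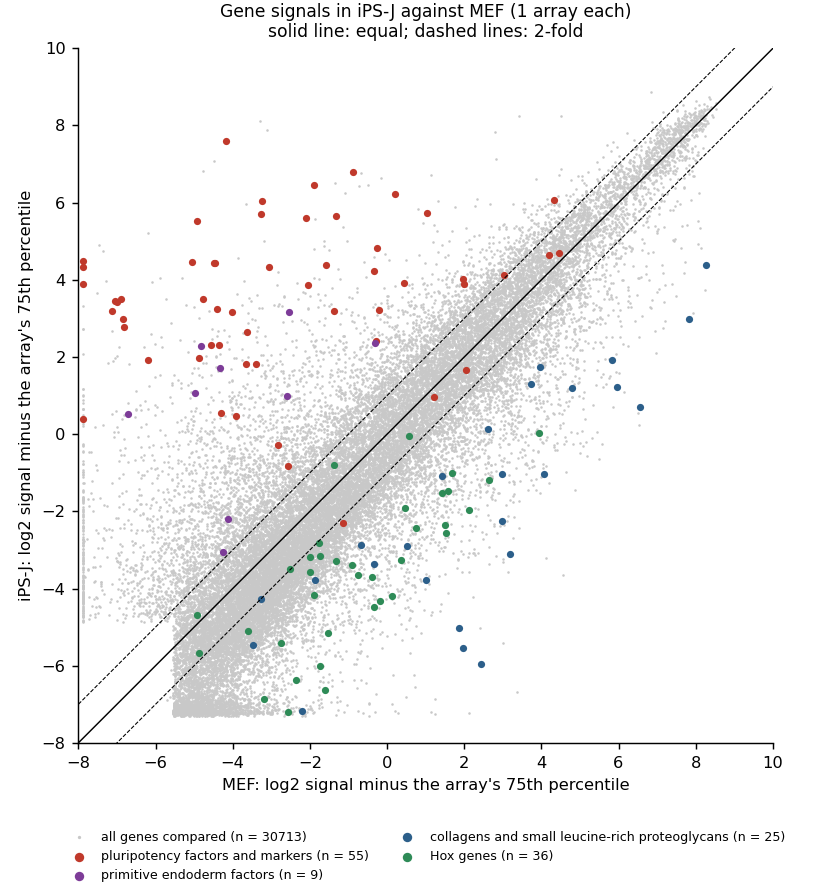
Scaled log2 signal of each gene in MEF (x axis) and iPS-J (y axis), with 4 sets of genes in colour and 1 array per population. Pluripotency genes and endoderm factors lie above the 2-fold lines with few exceptions, while collagens, small leucine-rich proteoglycans and most Hox genes lie below them.

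The transcription factors of the pluripotency circuit were far higher in iPS-J. All 24 such factors were detected. Of these, 22 exceeded MEF at least 2-fold and 0 lay below it by as much, and the median difference, 7 bounds included, was 6.76. With detection set by the ERCC control spots, which carry no sample sequence, 22 still passed 2-fold. The values were then bounds for 13 factors, and the median was 5.90. Pou5f1, which encodes Oct4 (chromosome 17 of mm9, probe from 35647280 to 35647340), gave 11868 in iPS-J against 83.5 in MEF, a difference of 7.66. Sox2, the partner of Oct4 on DNA (chromosome 3, 34550773 to 34550832), gave 13954 and 14.8. The MEF spot did not pass the background test, so Sox2 was higher by at least 9.19. The homeobox factor Nanog (chromosome 6, 122664590 to 122664649) had signals of 64738 and 183, a difference of 8.97. A second probe of Nanog went the other way, at -1.09. Sall4, a zinc finger factor, had signals of 11224 and 108, with its other probes between -0.80 and 1.80.

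Nanog is shown with its promoter because the DNA there holds the composite element that Oct4 and Sox2 bind together. The letters TTTGCAT, any base and then ACAANG, with N for any base, searched on both strands of the 250 bases before the start, were present in 3 of 32851 windows of the RefSeq promoter table (build GRCm38.p6), all of them of 2 genes. Of the 16 pluripotency factors with a window in that table, Nanog was the only 1 with a match. The 250 bases at GRCm38.p6 chr6:122707315-122707564, plus strand, carry it from 151 to 138 bases before the start, in capitals.
Nanog: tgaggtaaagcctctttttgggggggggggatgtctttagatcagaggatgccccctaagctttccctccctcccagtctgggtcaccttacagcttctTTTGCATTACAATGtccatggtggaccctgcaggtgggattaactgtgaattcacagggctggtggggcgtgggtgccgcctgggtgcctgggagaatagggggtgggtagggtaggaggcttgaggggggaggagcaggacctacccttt
A match is a description of the letters and does not show binding in these cells.

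Among the factors of the naive state, the ground state that LIF helps to maintain in mouse cells, all 11 were higher, with a median of 6.65. The orphan receptor Nr0b1 gave 13548 and 13.3 and was higher by at least 9.15. Its probe was printed 10 times, and the kept spots had a log2 SD of 0.08 in iPS-J. Tfcp2l1, a target of LIF signalling, was higher by at least 8.69 and the zinc finger factor Zfp42 (Rex1) by at least 8.46. The signal of Zfp42 was 8441 in iPS-J, 15.6 in MEF, 7251 in iPS-OSH and 172198 in ESC. Both iPS lines thus lay far below ESC while standing above MEF. ESC also differed from both iPS lines in mouse strain and scan session, so strain, session and reprogramming cannot be told apart here. Esrrb, another orphan receptor, had signals of 62564 and 704 (6.98), and Gbx2 had 6143 and 74.6 (6.87). Differences were much smaller for Klf4, a Kruppel-like factor that fibroblasts also express, with signals of 21725 and 14374 and a difference of 1.104 that was under 2-fold with spike-in scaling (0.80).

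Of the remaining factors, Dppa4 and Dppa2, paired nuclear proteins of early embryos, were higher by at least 9.13 and 8.90. Mycn had signals of 25119 and 212, a difference of 7.40, whereas its relative Myc had 3901 and 7299, a difference of -0.40 that lies within 2-fold. iPS-J thus differed from MEF in Mycn and not by 2-fold in Myc, which was 10984 in iPS-OSH and 1370 in ESC. The chromatin factor Utf1 differed by 6.02. Of 8 detected genes used for reprogramming, including Lin28a at 4.57 and Esrrb, 6 were higher. The exception in the other direction was Bmi1, a Polycomb protein, with signals of 840 and 6192 (-2.37, and -2.58 on a second probe). Shh, which encodes Sonic hedgehog, was not well above background on either array.

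Markers of pluripotent cells behaved like the factors, since 28 of 31 exceeded MEF at least 2-fold, 1 was lower and the median was 6.28. The largest measured difference among genes with a plain symbol was that of Dppa5a, an RNA-binding protein of pluripotent and germ cells (chromosome 9, 78214866 to 78214925). Its signals were 239881 and 98.5, a difference of 11.76 or 3464-fold. This size depends on a dim MEF signal. With ERCC-based detection, 6 of the 7 RNA-binding and germ cell like markers had bounds, and the highest value among the 7 was 10.65. Its near-identical neighbour Dppa5b had 168013 and 78.7 (11.57), and cross-hybridization between them was not tested. Fgf4, the growth factor that primes embryonic cells for differentiation, had 57037 and 58.2 (10.44). Tdgf1, the co-receptor of Nodal, had 27253 and 52.9 (9.52), with its other probes at 3.68 and 10.41. L1td1, an RNA-binding protein derived from a retrotransposon, had 81371 and 187 (9.28). Fbxo15, an early target of Oct4 and Sox2, had 26967 and 80.8 (8.89).

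Trap1a, Tcl1 and the growth factor gene Gdf3 were not detected in MEF and were higher by at least 10.02, 9.59 and 10.20, although the other probe of Gdf3 lay at 0.68. The uridine phosphorylase gene Upp1 had signals of 60818 and 414, a difference of 7.71 with 1.99 on its other probe. Tex19.1, which restrains retrotransposons, had 14093 and 64.9 (8.27), and the piRNA pathway gene Mael had 4360 and 141 (5.46). Ooep, an oocyte gene, was the 1 lower marker, with signals of 252 and 799 (-1.16).

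**Figure D2:**
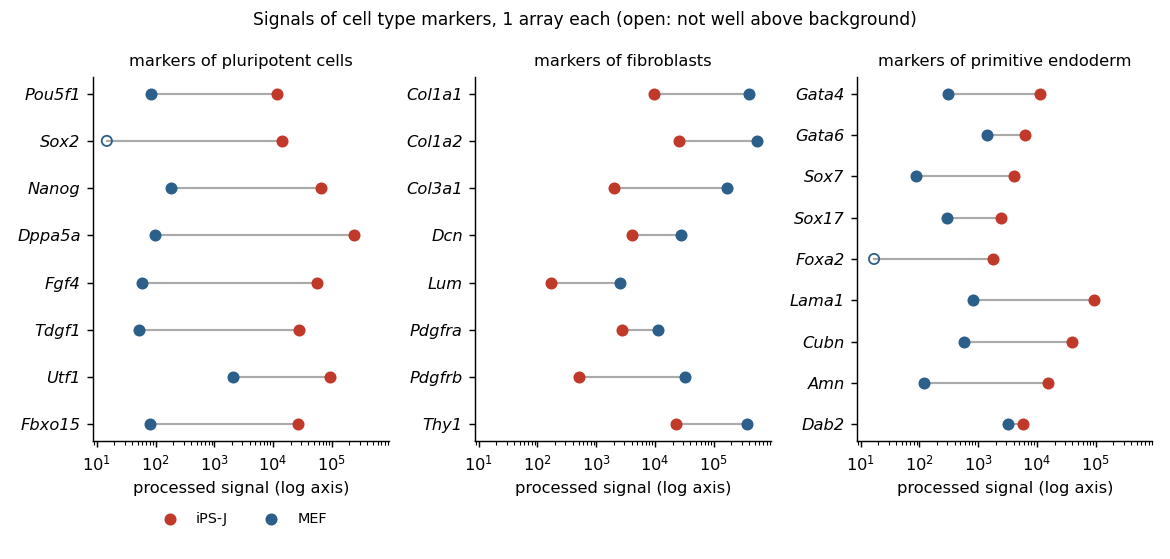
Processed signal on a log axis for markers of pluripotent cells, fibroblasts and primitive endoderm in iPS-J (red) and MEF (blue), 1 array each; open circles were not well above background. Every pluripotency and endoderm marker shown has the higher signal in iPS-J and every fibroblast marker the higher signal in MEF, on these unscaled values.

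The labels of both samples matched their markers. All 8 fibroblast markers were lower in iPS-J, yet each was detected there. Col1a1 (chromosome 11, 94813115 to 94813174) kept a signal of 9759.75 in iPS-J against 398046 in MEF (-4.84). Thy1, a surface glycoprotein of fibroblasts, had 22518 against 368030 (-3.52), and Pdgfra, a receptor for platelet-derived growth factor that primitive endoderm also carries, 2780 against 11364 (-1.52). In bulk RNA, fewer cells of a type and less RNA per cell cannot be told apart.

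Genes of primitive endoderm, the extraembryonic layer beside the epiblast, were also well above MEF in iPS-J. All 9 transcription factors of this layer were higher, with a median of 5.72, of which 8 passed 2-fold with normexp background correction, spike-in scaling or the unscaled deposited values. Gata4 (chromosome 14, 63817858 to 63817917) had signals of 11136 and 301 (5.72), and Gata6 had 6329 and 1410 (2.67). The SRY-box factors Sox7 and Sox17 had 4065 and 88.3 (6.03) and 2468 and 294 (3.58), with a further Sox17 probe at 6.36. Foxq1 differed by 7.11, Hnf4a by 6.03 and Foxa2, not well above background in MEF, by at least 6.23. Foxa1 differed by 1.19, but by 0.98 with normexp background correction and by 0.005 with ERCC-based detection. With detection set by the ERCC control spots, which carry no sample sequence, 7 of the 9 passed 2-fold and the median was 3.59.

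The same held for the endocytic machinery with which visceral endoderm takes up nutrients. Amn, the membrane anchor, had signals of 15335 and 120 (7.503), and Cubn, the ligand-binding part of that receptor, 39892 and 574 (6.63, and 7.25 on another probe). Their partner Lrp2 (megalin) had 20273 and 761 (5.24, and 1.93 on another probe), and the adaptor Dab2 5699 and 3263 (1.31). Of 18 secreted carriers and other products, 8 were higher and 3 lower, with a median of 0.62. The proteoglycan core Srgn had 39891 and 867 (6.03), the apolipoproteins Apoe and Apoc2 differed by 5.55 and 4.16, and Cited1 by 3.56. The plasminogen activator gene Plat lay the other way, with 497 and 9180 (-3.70), as did the receptor gene Pdgfra, given above, at -1.52. Afp and Apoa1, carriers typical of mature yolk sac that were named after their values were seen, were not well above background in iPS-J.

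On the other pluripotent arrays these genes had lower signals. Gata4 was at 11136 in iPS-J, 718 in iPS-OSH and 823 in ESC, Cubn at 39892, 1230 and 3471, and Srgn at 39891, 1240 and 3799. Using the same probes, the median over the 9 endoderm factors was 1.43 for iPS-OSH minus MEF and 2.18 for ESC minus MEF. These comparisons share the MEF array, and with 1 array per population the differences between lines have no test. Pluripotency factors, in contrast, had medians of 6.69 and 6.93 there against 6.76 for iPS-J.

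**Figure D3:**
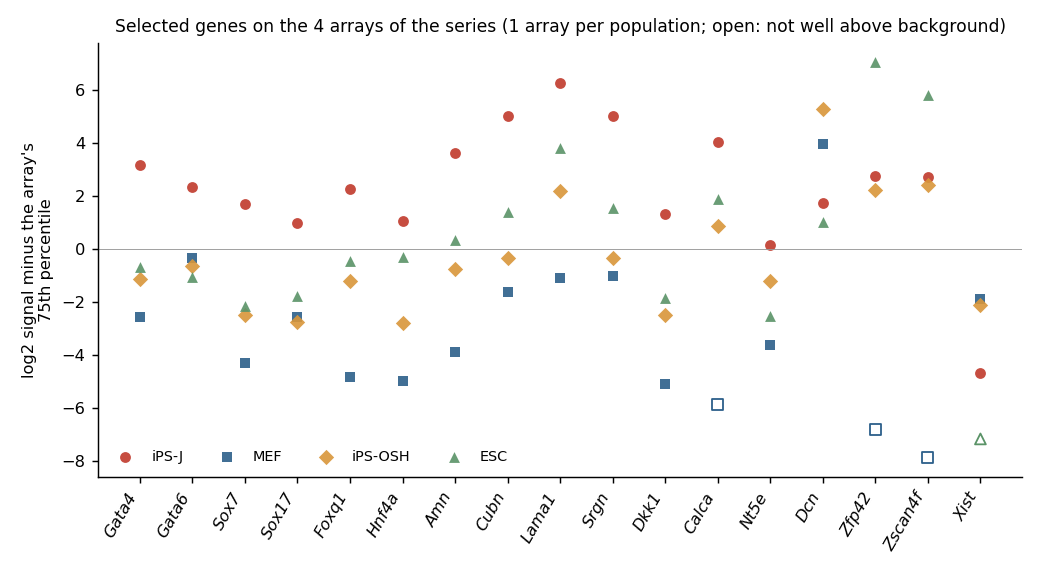
Scaled log2 signal of 17 genes in iPS-J, MEF, iPS-OSH and ESC, 1 array per population; open symbols were not well above background. The endoderm genes from Gata4 to Srgn are highest in iPS-J, Zfp42 and Zscan4f are highest in ESC, and Dcn is highest in iPS-OSH.

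Basement membrane genes had no common direction, with 6 of 18 higher, 5 lower and 7 within 2-fold. Of 9 laminin chains, 4 were higher and 3 lower. Lama1, the chain of the embryonic basement membrane (chromosome 17, 68171924 to 68171983), had signals of 94970 and 831 (7.34), and Lama5 17257 and 1682 (3.87). Lama2 and Lama4, the chains of muscle and vessels, had 206 and 5865 (-4.32) and 464 and 12040 (-4.19). Lamc1, the common gamma chain, differed by 1.78 and Lamb2 by -1.27. Among type IV collagens, nidogens and proteoglycans, Col18a1 (2.42) and Nid2 (1.91) were higher, Nid1 (-2.14) and Col4a6 (-1.79) lower, and the other 5 detected members lay within 2-fold.

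Epithelial genes were mostly higher in iPS-J, since 25 of 37 passed 2-fold upwards and 1 downwards (median 3.46). Cdh1, which encodes the adhesion protein E-cadherin, had signals of 15557 and 9.56 and was higher by at least 9.35. Its probe was printed 10 times, and the spots had a log2 SD of 0.05 in iPS-J and 0.53 at the background level of MEF. Epcam, another adhesion protein, was higher by at least 7.63. The protease inhibitors Spint2 and Spint1 differed by 6.19 and 5.89, with other probes at 0.83 and 3.70. P-cadherin, from Cdh3, was the only lower member, with 1015 and 4908 (-1.77).

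Tight junction genes had 10 of 13 members higher and 0 lower, led by the scaffold gene Cgn with 4977 and 81.9 (6.43) and the claudin genes Cldn3 (4.85) and Cldn6 (4.71). The simple-epithelium keratins Krt8 and Krt18 had 15131 and 574 (5.23) and 30820 and 3122 (3.81), whereas Krt19 lay within 2-fold at 0.27. Of the regulators, Elf3 was higher by at least 6.35 and Grhl2 by 5.09, with 0.99 on its other probe. With ERCC-based detection the epithelial median was 1.93.

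DNA methyltransferase genes differed widely among themselves. Dnmt3l, the cofactor of de novo methylation (chromosome 10, 77526112 to 77526171), had signals of 106325 and 1073 (7.14), and Dnmt3b had 51400 and 795 (6.52, with 4.10 and 6.79 on other probes). Dnmt1, which copies methylation at replication, differed by 0.69, its cofactor gene Uhrf1 by 1.43, and Dnmt3a, a further de novo enzyme, by 0.29. Among the enzymes that oxidize methylcytosine, Tet1 had 20254 and 517 (5.80), Tet2 7187 and 806 (3.66) and Tet3 798 and 2172 (-0.94). In all, 6 of 13 DNA methylation genes were higher and 0 lower.

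Polycomb genes, whose products keep developmental genes silent, differed in both directions. Of 23, 12 were higher and 7 lower, with a median of 1.03, and with spike-in scaling or the deposited values 9 were higher and 7 lower. The accessory subunits Jarid2 and Mtf2 of Polycomb repressive complex 2 had signals of 20744 and 1203 (4.62) and 28296 and 2459 (4.03). Phc1 and Pcgf6, of Polycomb repressive complex 1, differed by 3.42 and 2.97, although another probe of Phc1 lay at 0.06. In the opposite direction lay Bmi1 (-2.37) and Phc2 (-2.09). On the probes used, the paralogues Phc1 and Phc2 therefore differed in sign. Of 20 remodelling and histone modification genes, 10 were higher and 2 lower, but 6 and 4 were higher with spike-in scaling and the deposited values. Chd7, a remodeller of enhancers, had 7194 and 811 (3.66), Kdm4c, a histone demethylase, 12669 and 2894 (2.64), and the remodelling ATPase gene Smarca2 196 and 1978 (-2.83). Smarcc1 had -2.82 on its brightest probe and -0.56 to 0.58 on 3 others, so its probes disagree.

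Replication genes were higher in iPS-J, since 11 of 13 passed 2-fold upwards and 0 downwards (median 1.55), or 8 of 13 with spike-in scaling or the unscaled deposited values. Mcm10 had signals of 22617 and 5392 (2.58), the licensing factor Cdt1 50934 and 13242 (2.45), and the helicase subunits Mcm3 and Mcm5 differed by 2.19 and 2.05. Of 14 detected mitosis genes, 8 were higher (5 with normexp or spike-in scaling, 4 with the deposited values), led by the spindle checkpoint kinases Bub1 with 17598 and 5358 (2.22) and Bub1b with 15063 and 4831 (2.15). The spots of Bub1, printed 10 times, had SDs of 0.06 and 0.07.

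Promoters of this group are printed because E2F, the factor that switches on replication genes before S phase, has a well-known site. The letters TTTCCCGC and TTTGGCGC, on both strands, were found in 407 of 27025 genes with a window of 250 bases before a start (1.51%), and in 4 of the 11 replication genes with a window. Named for that match, these are Cdc6, Mcm5, Mcm6 and Mcm7, with differences of 1.53, 2.05, 1.17 and 1.55. Stretches of 80 bases from GRCm38.p6 are given with the match in capitals, for Mcm5 at chr8:75109324-75109403 (plus strand), Mcm7 at chr5:138172005-138172084 (minus strand) and Cdc6 at chr11:98907977-98908056 (plus strand).
Mcm5: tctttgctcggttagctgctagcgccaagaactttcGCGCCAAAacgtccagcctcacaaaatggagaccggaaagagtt
Mcm7: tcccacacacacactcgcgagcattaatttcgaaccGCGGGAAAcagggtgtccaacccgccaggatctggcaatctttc
Cdc6: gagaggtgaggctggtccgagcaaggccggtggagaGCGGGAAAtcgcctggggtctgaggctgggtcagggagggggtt

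The cyclins and kinases of G1 followed no common direction, with 2 higher and 4 lower of 9. Ccnd2 and Ccnd1, the D-type cyclins that link growth factors to the cycle, had signals of 4623 and 53172 (-3.02) and 13054 and 61433 (-1.73). Ccne1, the E-type cyclin, had 46593 and 24614 (1.43). Inhibitors of the cyclin-dependent kinases were lower in 4 of 7 cases. Cdkn2b had 1872 and 29804 (-3.48), Cdkn2c 111 and 1764 (-3.48), Cdkn1a, the p21 gene, 3852 and 40760 (-2.90) and Cdkn2a, the p16 and p19 gene, 3291 and 17591 (-1.91). Cdkn1c was the exception at 1.35. Lamin genes split as well, with Lmna at -2.03 and Lmnb1 at 1.77.

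Genes of the LIF and STAT3 pathway, which sustains the naive state in culture, included 6 higher and 5 lower of 12. Osmr, the oncostatin M receptor, had 934 and 35782 (-4.75), and Il6st, the shared gp130 subunit, 3238 and 26391 (-2.52). Il6ra, the interleukin-6 receptor, differed by -2.19. The kinase genes Pim3 and Pim1, targets of STAT3, had 10832 and 1678 (3.20) and 1768 and 294 (3.09). Lifr, the LIF receptor itself, named after its value was seen, differed by 1.37.

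FGF genes were higher in 13 of 24 cases and lower in 6 (median 1.42). After Fgf4, the largest were the receptor gene Fgfr4 with 2663 and 86.3 (5.45, but 0.39 on another probe), Fgf15 at 4.74 or more and Fgf17 (3.85). Fgf7 and the receptor gene Fgfr1, which serve mesenchyme, had 773 and 23941 (-4.45) and 8222 and 51700 (-2.14). The TGF-beta family held large differences in both directions. Gdf3, Tdgf1, Lefty2 with 18025 and 427 (5.91) and Nodal with 11353 and 685 (4.56) make up the embryonic Nodal branch, together with its receptor Acvr2b (4.54) and its nuclear partner Foxh1 (4.80). The fibrosis-related ligand Tgfb3 had 1326 and 58296 (-4.95), its receptor Tgfbr2 1262 and 25055 (-3.80), and the targets Tgfb1i1 and Tgfbi differed by -5.47 and -3.91. Of 27 detected members, 9 were higher and 16 lower.

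Of 23 detected BMP genes, 12 were lower in iPS-J and 4 higher. Bmp7 had 1883 and 56.2 (5.57) and Bmp4 23068 and 8046 (2.03), whereas the receptor gene Bmpr1b was lower by at least 4.42. For Wnt, 7 of 32 were higher and 12 lower. The antagonist Dkk1 had 3094 and 51.8 (6.41), with 277 for iPS-OSH and 367 for ESC. The nuclear effector Tcf7 had 1687 and 47.2 (5.67) and the ligand gene Wnt6 1009 and 81.4 (4.14). The receptor gene Fzd1 had 346 and 15001 (-4.93), and the secreted proteins Wisp1 and Wisp2 differed by -6.15 and -4.67.

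Of 13 detected Hedgehog genes, 4 were higher and 7 lower. The ligand gene Ihh had 704 and 103 (3.27) and the receptor and target Ptch1 505 and 166 (2.11, and 2.25 on another probe). Gli1, the effector most often read as a sign of signalling, had 1743 and 177 (3.81) on 1 probe and -2.33 on the other. Its direction is therefore not settled by these probes, and that of Gas1, at -4.93 with other probes from -0.50 to 0.19, is not either. Gli3, the repressor, had 1077 and 10854 (-2.83). Insulin-like growth factor genes were lower in 10 of 16 cases. The binding proteins Igfbp5 and Igfbp7 had 147 and 8490 (-5.35) and 136 and 7591 (-5.30), the adaptor Irs1 431 and 13121 (-4.42), and Igfbp2 stood against the rest with 55566 and 3364 (4.55).

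Metabolic lists had medians from -0.94 for sterol genes to 0.70 for threonine, glycine and one-carbon metabolism, with a few very large differences among their members. Slc2a3, the high-affinity glucose transporter, had signals of 136970 and 950 (7.68), yet the median over 29 glycolysis genes was 0.49 and 16 lay within 2-fold. Aldoc, an aldolase, had 31193 and 5250 (3.08) and Pdk1, the kinase that holds back pyruvate oxidation, 15678 and 3693 (2.59). Hif1a had -2.10 on 1 probe and 1.39 on another. Tdh, the threonine dehydrogenase that mouse pluripotent cells depend on, had 109725 and 479 (8.35, and 9.40 on a second probe), and Gldc, of the glycine cleavage system, 15535 and 514 (5.43). In that list 8 of 21 were higher and 1 lower.

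Respiratory chain genes were the most even, with 22 of 26 within 2-fold. The exceptions included isoforms of cytochrome c oxidase, Cox7a1 with 12205 and 1493 (3.54) and Cox6a2 with 82.0 and 1355 (-3.54). Tfam, which maintains mitochondrial DNA, differed by 1.80. Of 27 sterol genes, 12 were lower and 2 higher. Ch25h, which makes 25-hydroxycholesterol, had 168 and 2904 (-3.60), and the exporters Abcg1 and Abca1 differed by 2.36 and 1.44. Of 15 housekeeping genes, 12 lay within 2-fold, with a median of -0.05. Tfrc was higher (1.63), Gusb (-1.22) and B2m (-3.24) lower.

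Germ cell genes were higher too, since 25 of 31 detected members passed 2-fold upwards and 0 downwards (median 3.96, or 2.45 with ERCC-based detection). The X-linked homeobox gene Rhox5 had signals of 134213 and 1100 (7.44), and Rhox6 was higher by at least 6.85. Syce1, of the synaptonemal complex that joins meiotic chromosomes, had 6658 and 54.7 (7.44), and the meiotic cohesin subunits Stag3 and Smc1b differed by 4.65 and 4.12. All 11 detected meiosis genes were higher. Of 13 detected 2-cell stage genes, 9 were higher, and 7 of the 13 values were bounds. With ERCC-based detection 5 of 9 were higher, and among those detected on both arrays 3 of 6. Zscan4f, of a family that marks rare cells resembling the 2-cell embryo, had 8249 in iPS-J and no signal well above background in MEF, which makes it higher by at least 8.43. It was at 8291 in iPS-OSH and 72504 in ESC, which also differed from both iPS lines in mouse strain and scan session.

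Lineage genes other than endoderm showed no common direction. Of 11 detected primed epiblast genes, 6 were higher, including Otx2 with 12196 and 513 (5.08) and Zic2 (3.55), and 4 lower, including Fgf5 with 159 and 838 (-1.89). The highest member of this list, at 6.23 or more, was Foxa2, which is also counted among the endoderm factors above. T, Cer1 and Mixl1, which appear at gastrulation, were not well above background on either array. Of 17 detected trophoblast genes, 10 were higher and 3 lower. Tfap2c, which germ cells share, had 8022 and 94.8 (6.91), Ascl2 5712 and 281 (4.85) and Hand1 at least 4.56, whereas Gata3 and Gata2 differed by -2.10 and -1.80. Among neural genes 4 were higher and 5 lower of 14. Tubb3, a neuronal tubulin, had 2291 and 15587 (-2.26). Skeletal muscle and cartilage genes were mostly lower, with 13 lower and 1 higher of 19 detected, or 7 lower with normexp background correction. Endothelial genes were higher in 6 of 10 cases, among them Esam and Cdh5, junction proteins, by at least 4.39 and 3.62, and Flt1 lay at -2.89.

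Macrophage genes were mostly higher in MEF, as 10 of 16 detected members were lower in iPS-J and 4 higher (median -1.54). Tyrobp, a signalling adaptor of myeloid cells, had 135 and 3104 (-4.02), and the lysozyme genes Lyz1 and Lyz2 760 and 15891 (-3.88) and 77.0 and 1166 (-3.41). Gata1, the erythroid factor, went the other way with 605 and 40.6 (4.41). Whether blood cells were present in the MEF culture was not tested.

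Matrix genes made up the clearest block on the MEF side. Of 16 detected fibrillar and associated collagens, 15 were at least 2-fold lower in iPS-J and 0 higher, with a median of -3.95. Col3a1 had signals of 2023 and 167442 (-5.86), Col5a1 2895 and 110111 (-4.74), and Col5a2 and Col11a1 were below detection in iPS-J and lower by at least 7.11 and 6.91. Among chains that bind or bridge fibrils, Col8a1 had 261 and 13822 (-5.22) and Col12a1 605 and 29540 (-5.10). The lysyl oxidases, which crosslink collagen and elastin, were all lower, from Lox with 628 and 43866 (-5.62) to Loxl2 with 5626 and 49982 (-2.64). Of 18 elastic fibre and matricellular genes, 16 were lower and 0 higher. Postn had 1818 and 161240 (-5.96), Fbln5, which assembles elastic fibres, 1044 and 84092 (-5.82), and the fibrillins Fbn2 and Fbn1 differed by -5.30 and -5.23.

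All 9 detected small leucine-rich proteoglycans, which space collagen fibrils, were lower. Aspn was below detection in iPS-J and lower by at least 7.58, and Ogn had 143 and 16136 (-6.31). Dcn, the best known of them, had 4134 in iPS-J, 27457 in MEF, 61552 in iPS-OSH and 2677 in ESC, a difference of -2.22 from MEF. Of 20 detected matrix proteases and inhibitors, 16 were lower and 0 higher. Adamts1 and Adamts2, which trim proteoglycans and procollagen, had 284 and 15378 (-5.25) and 368 and 16879 (-5.01). Membrane-bound Mmp14 differed by -3.76 and Serpinf1 by -4.40.

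Regulators of mesenchyme were lower with the matrix. Of 26 transcription factors, 22 were lower and 0 higher (median -3.16). Tbx15 had signals of 163 and 11117 (-5.58), Osr1 104 and 6746 (-5.51), and Meox2 was lower by at least 5.88. Among surface receptors and adhesion molecules, 13 of 15 were lower. Pdgfrb had 513 and 32544 (-5.48), Cdh11 457 and 25736 (-5.31, but -0.78 on another probe) and the collagen receptor Itga11 2085 and 71798 (-4.60). Nt5e, the ectonucleotidase CD73 that marks mesenchymal stromal cells, was the exception with 1364 and 143 (3.76), with 669 for iPS-OSH and 228 for ESC.

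Contractile genes of smooth muscle, which cultured fibroblasts take up as they spread, were lower in 15 of 16 cases (median -3.73). Acta2, the smooth muscle actin (chromosome 19, 34316060 to 34316119), had 16524 and 531793 (-4.50), with spot SDs of 0.02 and 0.08. Actg2 had 1472 and 161646 (-6.27), the calponin Cnn1 5354 and 220653 (-4.86) and the myosin light chain Myl9 10905 and 431329 (-4.80). Serum response factor binds the CArG box in such genes, and the box was present on either strand in 439 of 27025 genes with a promoter window (1.62%) and in 3 of the 12 contractile genes with one, Cnn2, Myl9 and Srf. Their differences were -3.85, -4.80 and -1.16. The box is capitalised in 80 bases of GRCm38.p6, for Myl9 at chr2:156775268-156775347 and Cnn2 at chr10:79988509-79988588, both on the plus strand.
Myl9: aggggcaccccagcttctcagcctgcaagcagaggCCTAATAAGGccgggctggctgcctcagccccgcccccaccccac
Cnn2: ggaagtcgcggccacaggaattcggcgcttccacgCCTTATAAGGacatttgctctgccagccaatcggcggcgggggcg

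Hox genes, which give cells their position along the body axis, were lower in all 4 clusters. Of 36 detected, 31 were at least 2-fold lower and 0 higher, with a median of -2.75 that includes 10 bounds. The HoxC cluster had the lowest median, -3.54, and HoxD the highest, -2.18, but 5 of 8 HoxD values were bounds. Hoxa5 (chromosome 6, 52152049 to 52152108) had signals of 67.3 and 1914 (-4.32), Hoxc10 62.2 and 1563 (-4.14), Hoxb3 55.9 and 1400 (-4.14) and Hoxc6 1261 and 27125 (-3.92). Hoxc11, Hoxd10 and Hoxd11 were detected in MEF alone and lower by at least 3.54, 3.42 and 2.80. The 5 genes not past 2-fold came from all 4 clusters, 2 of them from HoxD, and include bounds. Of the 26 Hox genes detected on both arrays, 23 were lower and 3 within 2-fold.

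**Figure D4:**
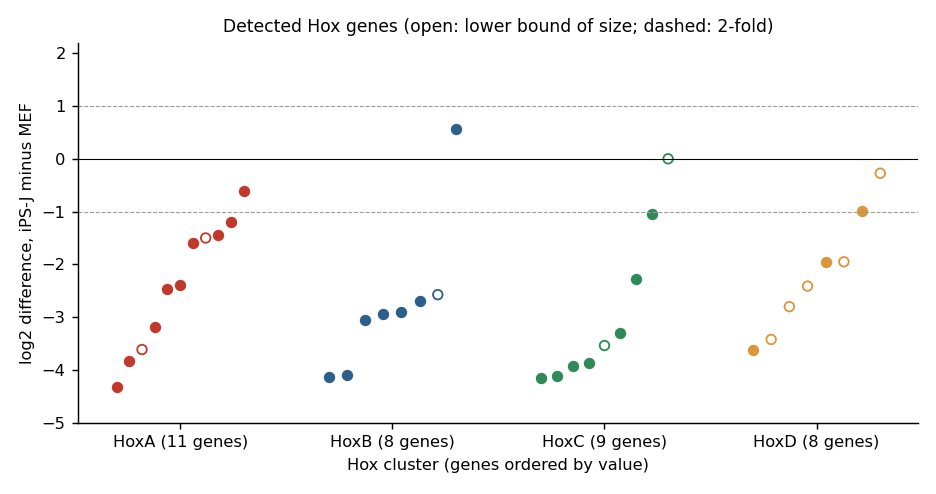
Log2 difference, iPS-J minus MEF, of the 36 detected Hox genes by cluster, ordered by value within each cluster; open circles are bounds and dashed lines mark 2-fold. In each cluster most values lie below the lower 2-fold line, 31 in all, and none lies above the upper one.

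Imprinted genes are expressed from 1 parental copy, and 17 of 30 were lower in iPS-J and 7 higher. All 6 genes of the Dlk1-Dio3 cluster were lower, with 1964 and 59869 for Dlk1 (-4.42), 1123 and 7876 for the microRNA host Mirg (-2.30) and 6409 and 35824 for Meg3 (-1.98). Meg3 was at 28630 in iPS-OSH and 15961 in ESC, the highest of the pluripotent arrays being that of iPS-OSH. Outside the cluster, Plagl1 had 2632 and 60835 (-4.02) and the growth factor gene Igf2 607 and 10260 (-3.57). Higher were Phlda2, a brake on placental growth, by at least 7.59, Ascl2 (4.85) and Peg10 (3.32). Xist, the RNA that silences an X chromosome in female cells, had 48.8 and 476 (-2.78), and the Y-linked genes Ddx3y, Eif2s3y and Uty were detected on both arrays within 2-fold.

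Inflammatory genes were higher in MEF. Of 15 detected chemokines and receptors 12 were lower in iPS-J and 0 higher (median -3.32). The neutrophil attractant Cxcl5 had 104 and 15579 (-6.71), Cxcl12, a stromal attractant of stem cells, 1299 and 76130 (-5.37), and Cxcl14 1044 and 49557 (-5.06). Of 23 cytokines, receptors and enzymes 13 were lower and 1 higher. The interleukin-1 receptor gene Il1r1 had 138 and 12445 (-5.99), Tnfaip6 45.6 and 2662 (-5.36) and Il6 48.0 and 2181 (-4.998), while Il33 was higher (1.16). Across the whole list the median was -2.57 for iPS-J minus MEF and -0.26 for iPS-OSH minus MEF with the same probes and the same MEF array.

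Of 29 detected interferon response genes 17 were lower and 2 higher, with a median of -1.48 (-1.05 with another background correction). Ifih1, a sensor of double-stranded RNA, had 85.6 and 1406 (-3.53) and Ifit2 was lower by at least 3.63. The exceptions were Ifitm1, with 31432 and 1696 (4.72), and Oas2 (3.06). Xaf1 had -3.12 on 1 probe and 2.62 on another. The letters of the interferon-stimulated response element, GAAA, any 2 bases and GAAA on either strand, lay before 936 of 27025 genes (3.46%) and 10 of the 24 list genes with a window. Ifit1 and Isg15 were among these 10, lower by at least 2.82 and by 2.91, and are shown from GRCm38.p6, at chr19:34640750-34640829 (plus strand) and chr4:156200852-156200931 (minus strand).
Ifit1: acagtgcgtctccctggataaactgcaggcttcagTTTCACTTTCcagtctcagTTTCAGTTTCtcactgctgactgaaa
Isg15: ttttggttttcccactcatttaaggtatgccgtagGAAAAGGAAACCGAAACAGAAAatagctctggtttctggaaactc
Matches were also present before Stat2, Ifitm2 and Rsad2, of which Stat2 and Ifitm2 lay within 2-fold at 0.09 and 0.03, and Rsad2 was not well above background in iPS-J. Among antigen presentation genes 5 of 16 were lower and 4 higher. B2m, the light chain of class I molecules, had 8707 and 117083 (-3.24), H2-D1, a class I heavy chain, 2362 and 16303 (-2.28), and H2-Eb1, a class II chain, 1939 and 270 (3.35).

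**Figure D5:**
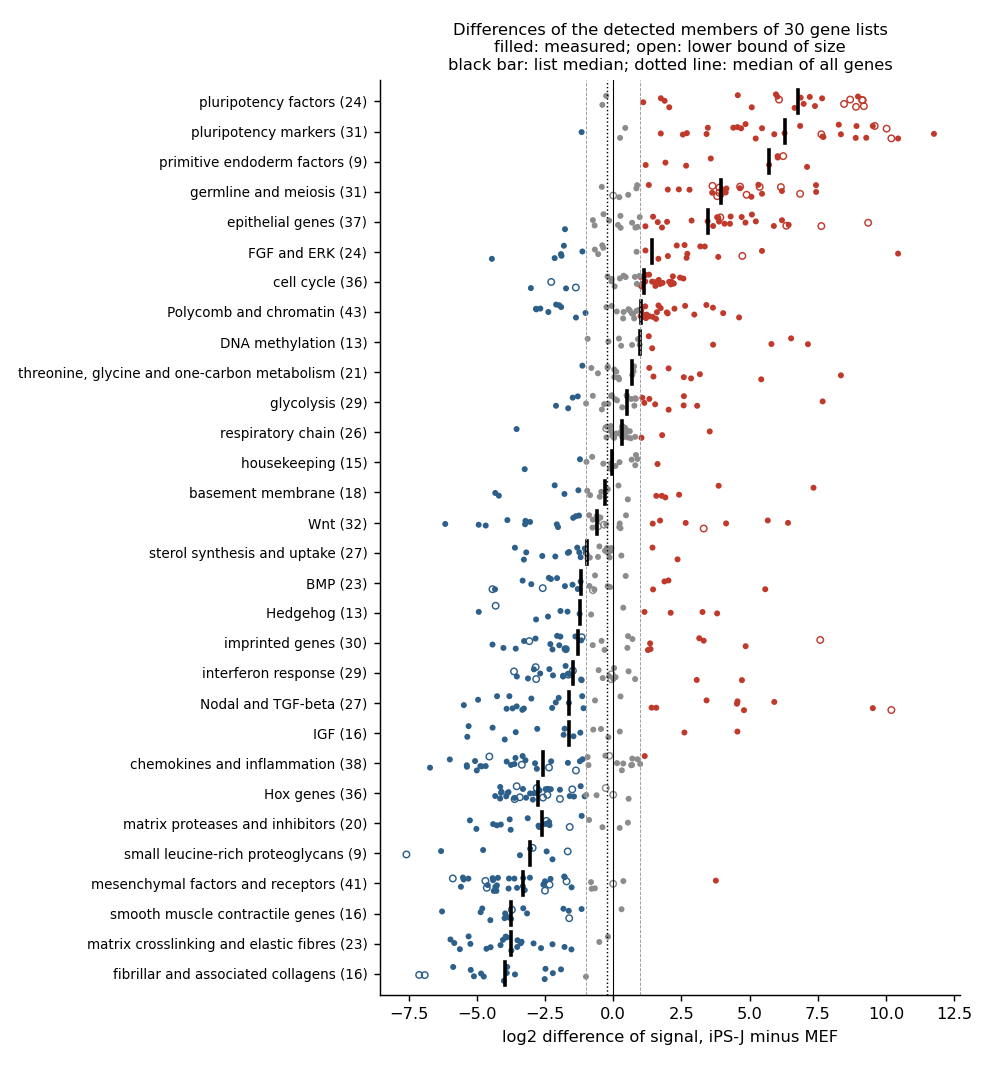
Log2 difference, iPS-J minus MEF, of the detected members of 30 gene lists, with the number of members in brackets, list medians as black bars and bounds as open circles. List medians run from -3.95 for collagens to 6.76 for pluripotency factors, and the respiratory chain and housekeeping lists cluster near 0.

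Several of the largest differences belonged to genes outside these lists. Lrrc17, a secreted leucine-rich repeat protein (chromosome 5, 21081617 to 21081676), had signals of 99.3 and 41278 (-8.19), and the gap junction gene Gjb2 134 and 30951 (-7.35). The transcription factor gene Ebf3 had 66.5 and 8313 (-6.46), the matricellular gene Smoc2 457 and 51826 (-6.32), and C1qtnf3 and Fibin differed by -6.32 and -6.24. Tnmd, the tenomodulin gene of tendon cells (chromosome X, 130397487 to 130397546), had 12.1 and 18280 and was lower by at least 8.52. The pentraxin Ptx3, Megf10 and the olfactory receptor gene Olfr922 were below detection in iPS-J, with bounds of -8.15, -7.44 and -7.27. On the iPS-J side, Pigp, of glycolipid anchor synthesis, had 343742 and 180 (11.40), but its other probe lay at -0.49. Tcf15, a bHLH factor of the early epiblast, had 20613 and 44.0 (9.38), and Gtsf1l 27067 and 79.5 (8.92). Rpl10l and Rbmxl2, retrogene copies known from testis, were higher by at least 10.59 and 9.68. Calca, the calcitonin gene (chromosome 7, 121775204 to 121775263), was at 20420 in iPS-J, 2845 in iPS-OSH, 4874 in ESC and 29.96 in MEF, higher by at least 9.74, with 3.21 on its other probe.

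Region probes for long intergenic noncoding RNA were compared for 4307 regions, of which 455 were higher and 1259 lower in iPS-J (median -0.51). Over all genes compared, 16.2% were higher and 24.6% lower. The probes of a pair of large differences are printed because the files give these transcripts no other name. For the region chr13:66888650-66902600 of mm9, minus strand, the probe at positions 66892588 to 66892647 was higher in iPS-J by at least 8.43, and another probe there by 9.20. A probe of a separate region, chr13:65716675-65765575, shares most of these bases and differed by 6.04. Cross-hybridization was not tested, so the signal cannot be assigned to 1 of these regions. For the region chr12:111617728-111665403, minus strand, the probe at 111621786 to 111621845 differed by 6.64, with signals of 7234 in iPS-J, 103 in MEF, 153 in iPS-OSH and 177 in ESC. The other 4 probes of that region ran from 0.14 to 2.71.
Region probe on chromosome 13: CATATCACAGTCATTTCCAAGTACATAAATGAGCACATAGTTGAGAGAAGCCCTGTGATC
Region probe on chromosome 12: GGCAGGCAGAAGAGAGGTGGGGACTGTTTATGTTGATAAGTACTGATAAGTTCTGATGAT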

How the data were processed

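RNA of 4 mouse cell populations was hybridised to 1-colour Agilent arrays, 1 array each, and the deposited scanner output was used for iPS-J and MEF. The authors' intensity values came from Agilent Feature Extraction 10.5.1.1, per the file headers, which subtracted background and, on iPS-J but not on MEF, divided out a spatial trend; probe positions are on mm9. The authors' deposited value table gives the same intensity values, within 0.497% of the scanner output, on a linear scale without centring, and was used as an alternative.

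Control spots and outlier spots (531 on iPS-J, 302 on MEF) were left out, log2 signals were reduced by each array's 75th percentile, and spots of a probe were averaged. A gene was represented by its brightest probe over the 4 arrays, which gives the pluripotent arrays more weight than MEF. With the brightest probe over iPS-J and MEF alone, the median of the pluripotency markers was 5.46 against 6.28. Genes were compared where the software flagged the signal as well above background in iPS-J, MEF or both. Below that, the lowest signal well above background, or the probe's own if higher, gave a bound. Names were matched to RefSeq for 17689 genes by symbol and 2392 by synonym, and 10632 kept the name in the file. Python 3.11.15 (pandas 2.3.3, numpy 2.4.6) and limma 3.58.1 were used, and the scripts were tested on simulated data. No exon or UTR is given because no mm9 annotation was used here.

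The members and the 43 gene lists were chosen with earlier results of these data known. Text genes were the 10 largest measured differences and 5 largest bounds in each direction. These were ranked over genes with a plain symbol, without clone, locus or predicted-gene names and region probes. Per list and role, the 5 largest and up to 3 opposed members were added. Lists under 12 detected members could be named whole. Promoter genes outside this rule were named for their motif. Alternatives changed the background correction, normalization, scaling, dim-probe filter, probe choice, values and threshold. A restored spatial trend and detection set by the ERCC control spots (their 95th percentile) were added after seeing the data. Some results are not reported here.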

Additional observations from a re-analysis of the deposited data

Results flagged for a closer look

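Among the genes named above and detected on each array compared, 3 differed from MEF by at least 2-fold in opposite directions in iPS-J and in another pluripotent population. The MEF array is shared by these comparisons, each population has 1 array, and the difference between the populations was not tested. Dab2, the endocytic adaptor, was higher in iPS-J by 1.31 but lay at -1.25 for iPS-OSH minus MEF and -1.41 for ESC minus MEF. Dcn, the matrix proteoglycan, was at -2.22 for iPS-J and 1.34 for iPS-OSH. Cdkn1c, an imprinted inhibitor of cyclin-dependent kinases, was at 1.35 for iPS-J and -1.55 for iPS-OSH.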

How the results depend on the processing

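No paired analysis was possible because each population has 1 array. The count of higher genes was 4964, against 3051 with the unscaled deposited values and 2065 at a 4-fold threshold. The count of lower genes was 7542, against 4165 with normexp background correction, 12618 with the deposited values, 4915 with ERCC-based detection and 2205 at 4-fold. The share of higher genes was 39.7%, against 51.0% with normexp, 26.0% with spike-in scaling and 19.5% with the deposited values. The median difference was -0.23, against 0 with normexp, -0.015 with quantile normalization, -0.54 with spike-in scaling, -0.73 with the deposited values and -0.030 with ERCC-based detection. Among the named genes past 2-fold, 3 changed sign under an alternative. With the brightest probe over iPS-J and MEF alone, Sall4 was at -0.80 and Pigp at -0.49, and with the median over probes Smarcc1 was at 0.39. With the median over probes Gli1 was at 0, Hif1a at -0.36, Xaf1 at -0.25 and Lifr at 0.52, and with the brightest probe over both arrays Gdf3 was at 0.68 and Spint2 at 0.83. Foxa1, Il33, Klf4 and Mcm6 were under 2-fold with spike-in scaling and with the deposited values. With the deposited values, so were Abca1, Ccne1, Cdkn1c, Dab2, Lifr and Uhrf1. With normexp, Foxa1, Il33 and Ooep were under 2-fold. With ERCC-based detection, Foxa1 was at 0.005 and Il33 at 0.30, and Cdh5 was under 2-fold too. Of 3811 genes past 2-fold that had other probes, 826 had 1 in the opposite direction. The lowest signals well above background were 35.0 on iPS-J and 34.0 on MEF, and the bounds rest on these values. They are not a sharp limit, since Megf10 at 37.9 in iPS-J did not pass the background test. A stricter limit gives smaller bounds, such as 0.98 for Cdh5 with ERCC-based detection.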
